A study of Mus musculus with 26 samples.

Results

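Ubiquitin-specific proteases (USPs) were described here in macrophages sorted from mouse mammary tumours. The members were taken by name: gene rows called Usp followed by a number, with or without letters, for which the authors gave a log2 value, without the interferon-induced Usp18. This gave 37 genes of 19549 rows. A further 14 rows with such names had no log2 value, and 4 joined rows hold a Usp gene together with a neighbour (Usp34, Usp16, Usp14 and Usp37). The name takes in 2 proteins that are not active proteases: Usp6nl, a GTPase-activating protein for Rab proteins, and Usp39, a splicing factor whose USP fold lacks activity.

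PyMT mammary tumour cells were grown in the mammary gland of female FVB mice, 5 to 7 weeks old at injection. The PyMT line carries the polyoma middle T oncogene, and all groups share this tumour model. From each of 13 tumours, cells with CD11b and F4/80 but without Ly6G were sorted. About 10% of them gave total mRNA, and the rest gave polysome-associated mRNA, which carries at least 3 ribosomes. By weight, 8 tumours of 467 to 841.8 mg are called small and 5 of 1504 to 2245 mg large. Each has both kinds of library, in 2 experimental batches. Batch 1 holds small replicates 1 to 5 and large replicates 1 and 2, and batch 2 holds small replicates 6 to 8 and large replicates 3 to 5.

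Ubiquitin is a small protein that cells attach to other proteins, singly or as chains, to send them to the proteasome or to change their activity. USPs are cysteine proteases that remove it, and they form the largest family of deubiquitinases. In macrophages, individual USPs act on adaptors of Toll-like receptor and NF-kB signalling, on histones, on receptors in endosomes and on DNA repair proteins. How much of an mRNA sits on polysomes is a common measure of how actively it is translated.

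A total mRNA library held 18018519 to 55609113 reads counted in genes, a polysome library 7034173 to 28257436. The 37 USP genes took 0.126% ± 0.0277 of the counts in total mRNA and 0.142% ± 0.0380 in polysomes (SD, n = 13 each). Of these genes, 36 had a count in every library, and Usp27x was at 0 in 3. The summed level of 8 macrophage markers was 6000 to 46600 CPM (read counts scaled to a common library size, with TMM) in total mRNA, and that of 6 neutrophil markers was 0.181 to 65.8 CPM over both kinds of library. Of these, Ly6g, the marker sorted against, was at most at 0.0868 CPM, while S100a8 reached 38.6, Mmp8 34.3 and S100a9 26.3. The tumour small replicate 7 stood apart: it had the lowest macrophage sum (6000 CPM in total mRNA, 1460 in polysomes) and the highest sums of 8 mammary epithelial markers (4150 and 1220) and 7 fibroblast markers (3170 and 2460). The total mRNA library of small replicate 8 correlated nearly as well with the median polysome library (r = 0.884 across genes) as with the median total mRNA library (r = 0.904). Small replicates 6 and 7 and large replicate 3 had the lowest share of Lars2 in total mRNA, 0.00304% to 0.00658% of counts. The part of these features in the results was not tested. Values without these tumours are given beside the differences between RNA sources where a call changed or a called fold moved by over 1.5 times.

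Levels per length of annotated exons were compared first. In total mRNA, Usp8, which acts on receptors in endosomes, had the highest mean level, 26.8 ± 11.8 CPM per kb (SD, n = 13). It was followed by Usp5, which takes apart free ubiquitin chains, with 23.8 ± 5.52 CPM per kb, by Usp39 with 17.9 ± 5.20 and by Usp22 with 15.3 ± 7.36. These 4 overlapped in their spread. In polysomes, the order was another one: the histone deubiquitinase Usp21 was first with 44.3 ± 17.1 CPM per kb, followed by Usp22, of the SAGA coactivator complex, with 28.9 ± 11.6, and by the nucleolar Usp36 with 16.7 ± 6.95. Usp8 was 10th there, with 8.42 ± 2.90 CPM per kb. In total mRNA Usp31 and Usp27x were the last of the 37, with 0.356 ± 0.181 and 0.234 ± 0.309 CPM per kb.

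Sequences around the start codon are shown for the 3 USP genes with the largest difference between polysomes and total mRNA in each direction whose annotated principal transcript has more than 15 bases before the start codon, since a ribosome begins to translate there. They come from GENCODE vM21 on GRCm38, the assembly that mm10 names. Each line gives 15 bases before and 12 after the start codon, which is in capitals, 5′ to 3′ on the strand of the mRNA. The first 3 were higher in polysomes and the last 3 lower.
Usp7 (chr16:8738271-8738300, minus strand): caggccgcggccgacATGaaccaccaacag
Usp49 (chr17:47672057-47672086, plus strand): cgactgcgctaaaacATGgatagatgcaaa
Usp21 (chr1:171286935-171286964, minus strand): cctgtggtgcccacaATGccccaggcttct
Usp15 (chr10:123196901-123196930, minus strand): ggctagtggaagaagATGgcggaaggcgga
Usp47 (chr7:112023693-112023722, plus strand): gtcggagtctgagcgATGgtgcccggcgag
Usp8 (chr2:126718046-126718075, plus strand): cgagtcttactcatcATGcctgctgtagct
Each window lies in 1 exon, at the border of the 5′ UTR and the coding sequence. A start codon context of ANNATGG or GNNATGG, searched on the mRNA strand at the annotated start only, was present in Usp49, Usp15 and Usp47. It was present in 6 of the 16 USP genes with a 5′ UTR that were higher in polysomes, in 6 of the 9 that were lower, and in 45.7% of the 10934 tested genes with such a transcript.

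**Figure D1:**
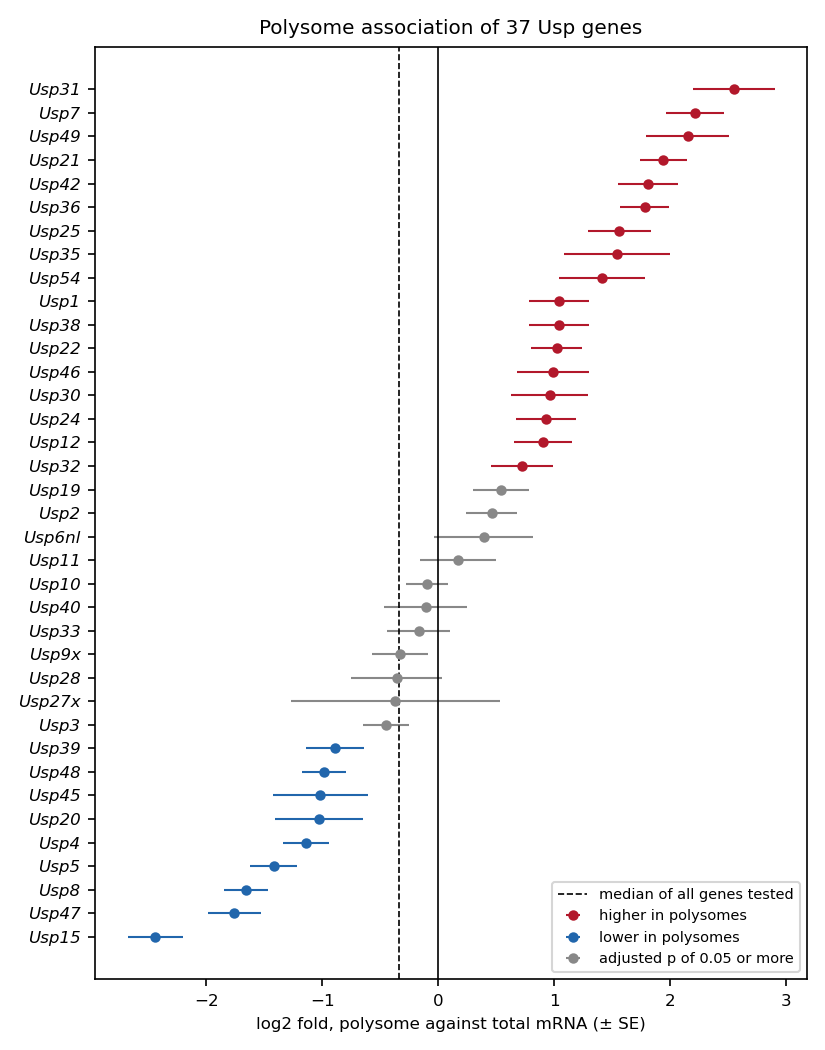
Log2 fold of polysome against total mRNA for each of the 37 genes, from the fit over 26 libraries. Points are folds, bars 1 SE, colours the call at an adjusted p below 0.05, and the dashed line the median of all 12109 genes tested (−0.34). The genes run from Usp31 at 2.55 to Usp15 at −2.44, with 17 called higher and 9 called lower.

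The first comparison asked which USP mRNAs were richer in polysomes than in total mRNA of the same tumour. Of 37 USP genes, 17 were higher in polysomes (45.9%), against 22.6% of the 12109 genes tested, and 9 were lower (24.3%), against 34.0% of all genes (edgeR quasi-likelihood test, adjusted p below 0.05). The other 11 did not pass. The median log2 fold was 0.46 for the USP genes and −0.34 for all genes tested. With small replicates 6 and 7 and large replicate 3 left out, 15 were higher and 10 lower, and with small replicates 7 and 8 left out, 17 and 7. The shares of all genes without these tumours are not given here, so these counts cannot be set against a background. In batch 1 alone 14 were higher (37.8%) and 8 lower (21.6%), against 21.3% and 27.9% of all genes in that fit. In batch 2 alone 13 were higher (35.1%) and 6 lower (16.2%), against 14.0% and 15.9%. The libraries are bulk, so a fold is over all cells sorted from a tumour. Where tumours are compared with each other, fewer cells of a type and less RNA per cell cannot be told apart. For 1 USP gene, Usp7, the lowest polysome library was above the highest total mRNA library (1.31% of all genes), and for 1, Usp15, the highest polysome library was below the lowest total mRNA library (2.63% of all genes). Usp7, Usp22 and Usp36 were higher in the polysome library of every tumour (6.90% of all genes), and Usp4, Usp8, Usp15 and Usp48 lower (10.4% of all genes).

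Most USPs of histones and chromatin were higher in polysomes: 6 of 8 were higher, 0 lower, and the median log2 fold was 1.80 (all genes: 22.6% higher, 34.0% lower, median −0.34). The groups of USPs by role were drawn up with results of these data known, so their counts are descriptions. Usp7, which acts on Mdm2, p53 and chromatin proteins, was at 5.62 to 29.8 CPM in total mRNA (median 13.5) and at 37.7 to 150 CPM in polysomes (median 65.1, n = 13 each). No polysome library overlapped with the total mRNA libraries. The fold was 4.63, or 2.21 ± 0.25 (SE) in log2 (edgeR adjusted p = 5.42e-08). Usp21, a histone H2A deubiquitinase, was at 30.6 to 178 CPM in total mRNA (median 47.4) and at 83.6 to 393 in polysomes (median 210.0). It was higher in 12 of 13 tumours, with a log2 fold of 1.94 ± 0.20 (edgeR adjusted p = 1.22e-08). The exception was small replicate 8, whose total mRNA library held the 178 CPM and whose polysome library held 170.0.

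Usp36 and Usp42 are paralogs, and both were higher in polysomes. Usp36, a nucleolar enzyme of ribosome formation, was at 13.4 to 89.5 CPM in total mRNA (median 36.9) and 69.4 to 233 in polysomes (median 113), higher in 13 of 13 tumours. Its log2 fold was 1.78 ± 0.21 (edgeR adjusted p = 1.18e-07). Usp42, which acts on p53 and histone H2B, was at 4.89 to 54.0 CPM in total mRNA (median 7.72) and 22.1 to 62.9 in polysomes (median 40.9). Its log2 fold was 1.81 ± 0.26 (edgeR adjusted p = 1.72e-06), with the highest total mRNA values in small replicates 7 and 8, 39.1 and 54.0 CPM. Usp49, a histone H2B deubiquitinase, was at 0.802 to 19.1 CPM in total mRNA (median 2.91) and 7.30 to 38.8 in polysomes (median 14.3), a log2 fold of 2.15 ± 0.36 (edgeR adjusted p = 1.45e-05). Of the annotated Usp49 exons, 52.3% overlap the read-through gene Gm20517 on the same strand, so its reads cannot be divided between them. Usp22, an H2A and H2B deubiquitinase, was at 15.4 to 121 CPM in total mRNA (median 78.6) and 54.0 to 287 in polysomes (median 132), a log2 fold of 1.02 ± 0.22 (edgeR adjusted p = 0.000397). That fold was 0.65 without small replicates 6 and 7 and large replicate 3, where its total mRNA level was lowest (15.4, 24.8 and 18 CPM). Usp3, an H2A deubiquitinase, and Usp27x, a paralog of Usp22, did not pass, with log2 folds of −0.45 and −0.37.

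**Figure D2:**
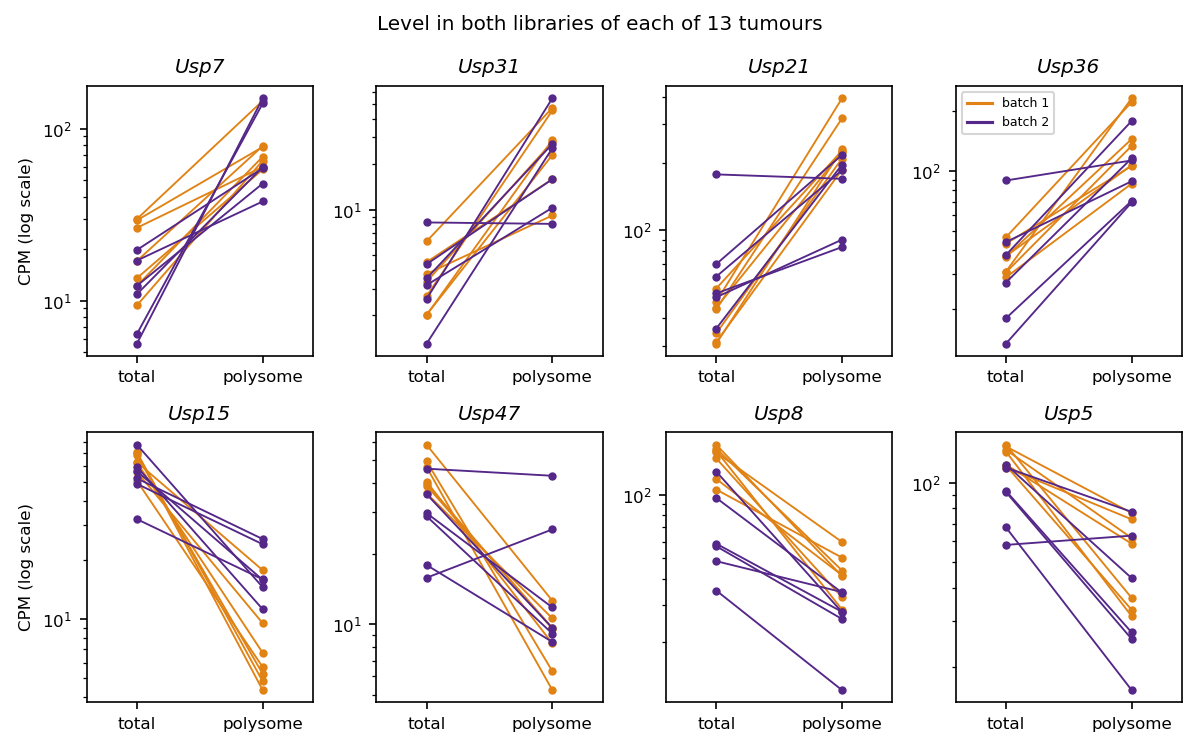
CPM (log axis) of 8 USP genes in the total mRNA and the polysome library of each of 13 tumours, joined by a line and coloured by batch. All 13 lines go up for Usp7 and Usp36 and down for Usp15 and Usp8. A single line is nearly flat for Usp21, that of small replicate 8 (178 against 170.0 CPM).

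Among the USPs of immune and growth factor signalling, 5 of 8 were higher in polysomes and 2 lower, with a median log2 fold of 0.95 (−0.34 for all genes). Usp31, described as a regulator of NF-kB, had the largest fold of the family. It was at 1.30 to 8.23 CPM in total mRNA (median 3.34) and 8.05 to 54.5 in polysomes (median 25.5), 5.84-fold higher (log2 2.55 ± 0.35, edgeR adjusted p = 1.01e-06). In large replicate 5 both libraries were alike, with 8.23 CPM in total mRNA and 8.05 in polysomes. Usp25, which acts on TRAF adaptors of Toll-like and interleukin-17 receptors, was at 6.38 to 101 CPM in total mRNA (median 13.8) and 21.3 to 76.0 in polysomes (median 41.3), a log2 fold of 1.56 ± 0.27 (edgeR adjusted p = 2.75e-05). Again small replicate 8 held the 101 CPM and was the exception, with 60.2 in polysomes. Usp38, Usp46 and Usp12 were higher with log2 folds of 1.04, 0.99 and 0.90. Without small replicates 6 and 7 and large replicate 3, where its total mRNA level was lowest (5.97, 4.69 and 9.44 CPM), the fold of Usp38 was 0.56 (edgeR adjusted p = 0.0275). For Usp38, 20.5% of the exons overlap the antisense gene Gm9725, and the strand setting of the counting is not stated. Usp46 was not called without small replicates 6 and 7 and large replicate 3 (log2 fold 0.49, adjusted p = 0.181).

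The paralogs Usp15 and Usp4 went the other way. Usp15, an enzyme of TGF-beta receptor and SMAD signalling, was at 32.2 to 77.0 CPM in total mRNA (median 59.5) and at 4.34 to 25.5 in polysomes (median 11.2). The libraries of both kinds did not overlap, and the level was 5.43-fold lower in polysomes (log2 −2.44 ± 0.24, edgeR adjusted p = 9.68e-09). Usp4 had the highest mean CPM of the family in total mRNA, with 52.1 to 153 CPM (median 120.0), and 25.6 to 101 in polysomes (median 49.1). Its log2 fold was −1.14 ± 0.20 (edgeR adjusted p = 3.48e-05), and it was lower in 13 of 13 tumours. Usp11, the third paralog of this branch and an enzyme tied to BRCA2, was at 2.22 to 13.2 CPM in total mRNA and 5.03 to 24.1 in polysomes, with no call (log2 fold 0.17). Usp10, which binds G3bp1, had no call either (log2 fold −0.10).

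Of 4 members at endosomes and membranes, 1 was higher and 1 lower. Usp8, which binds STAM and acts on receptors on their way to the lysosome, was at 35.1 to 173 CPM in total mRNA (median 119) and 11.8 to 59.7 in polysomes (median 34.3). It was lower in 13 of 13 tumours, 3.16-fold (log2 −1.66 ± 0.19, edgeR adjusted p = 6.57e-08). Usp32 was higher (log2 fold 0.72 ± 0.27, edgeR adjusted p = 0.0251). Its call did not hold without large replicate 1 (log2 fold 0.64, adjusted p = 0.077) or without large replicate 4 (0.63, adjusted p = 0.0691). It was also lost without small replicates 6 and 7 and large replicate 3 (0.74, adjusted p = 0.0708), and with no filter on low counts (0.76, adjusted p = 0.0507). Usp32 was not called in batch 1 alone (0.83, edgeR adjusted p = 0.0751) or in batch 2 alone (0.70, edgeR adjusted p = 0.215). Usp2 (0.46) and Usp6nl (0.39) had no call. Usp6nl was at 37.1 CPM in the polysome library of small replicate 7 and at 1.23 to 11.4 in the other 12.

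Among the 7 USPs of DNA repair and the cell cycle, 1 was higher and 3 lower, with a median log2 fold of −0.36, near the −0.34 of all genes. Usp1, which acts on PCNA and Fancd2, was higher, with 5.05 to 38.6 CPM in total mRNA (median 8.31), 10.8 to 101 in polysomes (median 28.1) and a log2 fold of 1.04 ± 0.26 (edgeR adjusted p = 0.00166). Usp47, a paralog of Usp7 that acts on DNA polymerase beta, was lower. It was at 15.8 to 58.3 CPM in total mRNA (median 39.0) and 5.24 to 43.0 in polysomes (median 9.65), a log2 fold of −1.76 ± 0.23 (edgeR adjusted p = 5.45e-07). The exception was small replicate 6, with 15.8 CPM in total mRNA and 25.4 in polysomes. Usp7 and Usp47 were the paralogs of the family called in opposite directions. Usp40, the third of that branch, had no call (log2 fold −0.11).

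The calls of Usp20 and Usp45 were lost when single tumours were left out. Usp20, which acts on beta-adrenergic receptors and hypoxia signalling, was at 5.00 to 23.2 CPM in total mRNA (median 10.8) and 0.743 to 17.0 in polysomes (median 7.60), a log2 fold of −1.03 ± 0.38 (edgeR adjusted p = 0.0219). Without large replicate 1, 3 or 5 its fold was −0.93, −0.88 or −0.80 and its adjusted p 0.0624, 0.077 or 0.0898. It was −0.71 without small replicates 7 and 8 (adjusted p = 0.146) and −1.06 without small replicates 6 and 7 and large replicate 3 (adjusted p = 0.0597). In batch 1 alone the fold was −0.10, and in batch 2 alone −1.87. Usp45, which acts on the repair nuclease subunit Ercc1, was at 2.42 to 13.5 CPM in total mRNA (median 9.28) and 0.672 to 19.2 in polysomes (median 3.26), a log2 fold of −1.02 ± 0.41 (edgeR adjusted p = 0.0385). Its call was lost without small replicate 2, 3, 4 or 8 or large replicate 1, 3 or 5, each alone, with folds of −0.97, −0.88, −1, −0.92, −1.04, −0.99 and −0.72 and adjusted p of 0.0612, 0.0686, 0.0609, 0.0745, 0.0585, 0.0686 and 0.14. Without small replicates 7 and 8 together it was −0.93 (adjusted p = 0.0991). With all tumours kept, the Usp45 call was also lost under other processing. In edgeR its adjusted p was 0.0522 with DESeq2's size factors, 0.0503 scaled by upper quartile and 0.0731 with no filter on low counts. In limma voom it was 0.0539. The Usp45 call held in 9 of 21 other settings. Its fold was −2.24 in batch 1 alone and 0.42 in batch 2 alone.

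Usp5, the enzyme of free ubiquitin chains, was at 58.1 to 139 CPM in total mRNA (median 116) and at 16.4 to 77.5 in polysomes (median 43.5). It was 2.67-fold lower (log2 −1.42 ± 0.20, edgeR adjusted p = 1.53e-06), in 12 of 13 tumours. In small replicate 8 it was at 58.1 CPM in total mRNA and 63.0 in polysomes. The splicing factor Usp39 was lower as well, at 23.7 to 64.5 CPM in total mRNA and 3.68 to 42.0 in polysomes (log2 −0.89 ± 0.25, edgeR adjusted p = 0.00318). Usp39 was not called in batch 1 alone (−0.52, edgeR adjusted p = 0.105) or in batch 2 alone (−1.04, edgeR adjusted p = 0.0653).

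The large and less studied members were divided: 3 of 6 were higher and 1 lower, with a median log2 fold of 0.41 (−0.34 for all genes). Usp35 was at 0.466 to 6.11 CPM in total mRNA and 1.65 to 15.9 in polysomes (log2 1.54 ± 0.46, edgeR adjusted p = 0.006). Usp54 and Usp24 were higher with log2 folds of 1.41 and 0.93. Usp35 was not called in batch 2 alone (1.25, edgeR adjusted p = 0.205), nor Usp54 in batch 1 alone (1.13, edgeR adjusted p = 0.072). Each was called in the other batch alone. Usp48, which acts on the NF-kB subunit RelA, was lower in 13 of 13 tumours, at 38.4 to 67.7 CPM in total mRNA (median 54.9) and 16.2 to 55.7 in polysomes (median 32.0), a log2 fold of −0.99 ± 0.19 (edgeR adjusted p = 0.000107). Usp9x, which acts on many substrates at membranes and centrosomes, was among the 5 with the highest mean CPM in total mRNA. It was at 21.2 to 130.0 CPM in total mRNA (median 75.0) and 31.8 to 115 in polysomes (median 57.0), with a log2 fold of −0.33 ± 0.24 (edgeR adjusted p = 0.246). Without small replicates 6 and 7 and large replicate 3 this was −0.69 (adjusted p = 0.00659). Usp30, which removes ubiquitin from mitochondria, was higher (log2 0.96), and the membrane-anchored Usp19 had no call over all tumours (0.54, edgeR adjusted p = 0.0622). Usp30 was called in batch 1 alone (1.24, edgeR adjusted p = 0.0184) but not in batch 2 alone (0.68, edgeR adjusted p = 0.318). Usp19 was higher in batch 1 alone (1.42, edgeR adjusted p = 0.000391) and not in batch 2 alone (−0.04), and it passed in 10 of 22 other settings of the fit over both batches. The difference of Usp19 between batches did not pass (−1.15, edgeR adjusted p = 0.101). Of the Usp30 exons, 8.1% overlap other genes, mostly Alkbh2 on the opposite strand.

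Other deubiquitinases and USP partners were described in the same comparison. Of 34 tested deubiquitinases of other families or other names, 8 were higher, 13 lower, and the median log2 fold was −0.41, close to the −0.34 of all genes. In the OTU family 5 of 12 were higher and 1 lower (median 0.37), and Otulin, which trims linear ubiquitin chains (2.26), and Otud7b (1.92) were among the higher ones. In the Josephin family Josd1 and Josd2 were higher and Atxn3 lower (median 0.71). In the JAMM family of zinc proteases 0 of 9 were higher and 6 lower (median −0.92), among them Psmd14 of the proteasome lid (−2.48). Uchl5, a proteasome-bound deubiquitinase, was at −2.74, and Cyld, which has a USP fold under another name, at −1.09. Of 14 partners of USPs, 4 were higher and 8 lower (median −0.94). G3bp1, the partner of Usp10, was lower (−2.53), as was Gmps, the partner of Usp7 (−2.52). Of the STAM proteins, which bind Usp8, Stam was higher (1.31) and Stam2 lower (−1.17). That the USP genes differ from these lists was not tested.

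USP mRNAs were long: the median coding sequence was 2889 bases, against 1377 in the 11080 tested genes with an annotated complete coding transcript (91.5% of those tested). Coding length had a Spearman correlation with the polysome fold of 0.08 across the 37 USP genes and of 0.09 across all genes. For the GC content of the coding sequence these were 0.26 and 0.38. Both are descriptions across genes that share the same libraries. The 17 genes higher in polysomes had a median 5′ UTR of 280 bases, and an upstream ATG was present in 13 of them. The 9 lower genes had a median of 89 bases, and 6 held an upstream ATG. Over all tested genes, the median was 179 bases and 51.6% held one. The genes called higher, over the whole table, had a median of 215 bases and 55.7% held one, and those called lower 154 bases and 48.0%. In the windows above, Usp7 has 0 ATGs in its 57 bases of 5′ UTR, and Usp49 has 8 in 328.

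**Figure D3:**
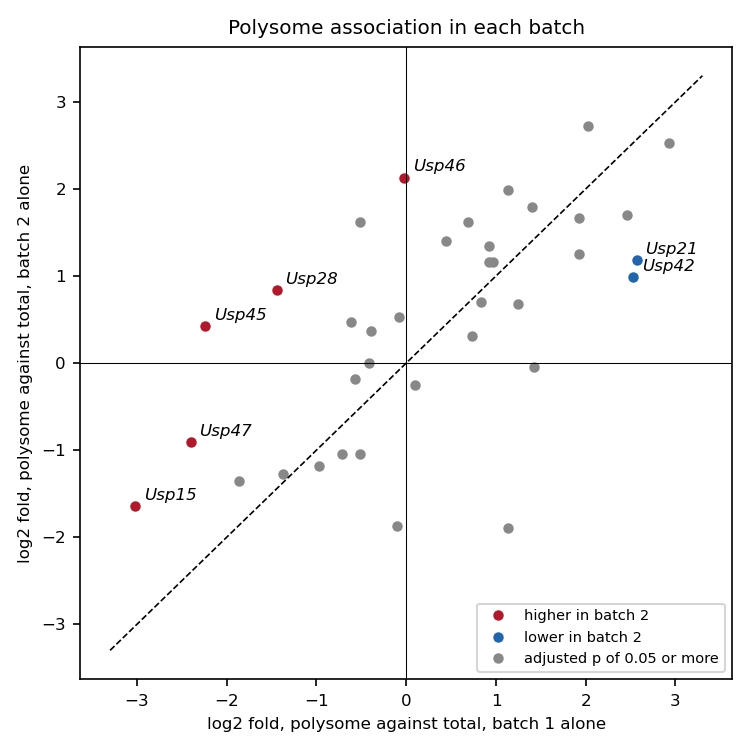
Log2 fold of polysome against total mRNA in batch 2 alone (y axis) against batch 1 alone (x axis), 1 point per USP gene. The dashed line marks equal folds. The 5 red genes were called higher in batch 2, all above the line, and the 2 blue genes lower, below it.

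The second comparison asked whether polysome association differed between the batches. Of 37 USP genes, 5 had a higher polysome fold in batch 2 (13.5%), against 10.5% of all genes tested, and 2 a lower one (5.41%), against 6.95%. These shares are near the background. The median batch difference was 0.42 for the USP genes and 0.26 for all genes. Batch holds whatever differed between the runs of the experiment, and such causes cannot be told apart. Of the 7 calls, 0 remained without small replicates 6 and 7 and large replicate 3, 0 without small replicates 7 and 8, 1 without small replicate 6 and 4 without small replicate 7.

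Usp45 had a polysome fold of −2.24 in batch 1 and 0.42 in batch 2, a difference of 2.86 ± 0.83 (edgeR adjusted p = 0.0188). Its median in polysomes was 2.33 CPM in the 7 tumours of batch 1 and 8.43 in the 6 of batch 2. Usp28, a paralog of Usp25 that acts on Myc and in DNA damage signalling, had folds of −1.44 and 0.84 (difference 2.39 ± 0.77, edgeR adjusted p = 0.0336). In total mRNA it was at 8.08 to 25.7 CPM in batch 1 and at 1.22 to 10.8 in batch 2. Usp46 had folds of −0.02 and 2.13 (difference 2.23 ± 0.62, edgeR adjusted p = 0.0147), with polysome levels of 4.17 to 26.6 CPM in batch 1 and 18.8 to 75.7 in batch 2. Usp47 (1.65 ± 0.45, edgeR adjusted p = 0.0125) and Usp15 (1.58 ± 0.46, edgeR adjusted p = 0.0188) were low in polysomes in both batches, with folds of −2.40 and −3.02 in batch 1 and −0.91 and −1.64 in batch 2. Usp42 and Usp21 were the ones with a lower fold in batch 2. Usp42 went from 2.53 to 0.99 (difference −1.71 ± 0.50, edgeR adjusted p = 0.0185), and its total mRNA level was 5.68 to 8.43 CPM in batch 1 and 4.89 to 54.0 in batch 2. Usp21 went from 2.57 to 1.18 (difference −1.55 ± 0.38, edgeR adjusted p = 0.00586).

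With single tumours left out, Usp21 kept its batch call in each case and the other 6 did not. Without small replicate 6, the adjusted p (edgeR) was 0.0737 for Usp45 (difference 2.52), 0.0972 for Usp28 (2.15), 0.0558 for Usp46 (2.03), 0.0601 for Usp47 (1.35), 0.0672 for Usp15 (1.43) and 0.0565 for Usp42 (−1.63). Without small replicate 7 it was 0.0658 for Usp45 (2.56), 0.0748 for Usp28 (2.25) and 0.0718 for Usp46 (1.80). Without small replicate 8 it was 0.0675 for Usp42 (−1.38) and 0.0524 for Usp15 (1.41), and without large replicate 2 it was 0.0601 for Usp15 (1.44). The call of Usp28 was also lost without small replicate 1 or 3 or large replicate 2, 3 or 5, with differences of 2.08 to 2.32 and adjusted p of 0.0503 to 0.0806. All these differences kept their sign.

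The 3 total mRNA libraries with the least Lars2 also had the lowest levels of several USP genes. Lars2, a mitochondrial tRNA synthetase gene that took 2.17% to 25.9% of the counts in polysome libraries, made up 0.0502% to 0.902% of 10 total mRNA libraries but only 0.00304% to 0.00658% of those of small replicates 6 and 7 and large replicate 3. In total mRNA, 10 of 37 USP genes were lowest in these 3 libraries (27.0%, against 12.1% of all genes tested): Usp2, Usp8, Usp22, Usp24, Usp25, Usp28, Usp33, Usp38, Usp46 and Usp54. For 2, Usp20 and Usp27x, they were the highest (5.41%, against 10.6%). Usp33, a paralog of Usp20, was at 3.72, 7.34 and 6.49 CPM there and at 14.6 to 42.0 in the other 10. In polysomes Usp33 was at 12.5 to 28.4 CPM in all 13. Its log2 fold was −0.17 over all tumours and −0.58 without these 3 (edgeR adjusted p = 0.608 and 0.049). Large replicate 4, with the least Lars2 of the other 10 libraries (0.0502%), had 39.5 CPM of Usp33, near the top of their range. Small replicate 8, with the next lowest share (0.0792%), had 14.6 CPM, the lowest of these 10. Whether USP levels go with the share of Lars2 was not tested. An opposite-strand gene model overlaps 24.4% of the Usp33 exons.

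**Figure D4:**
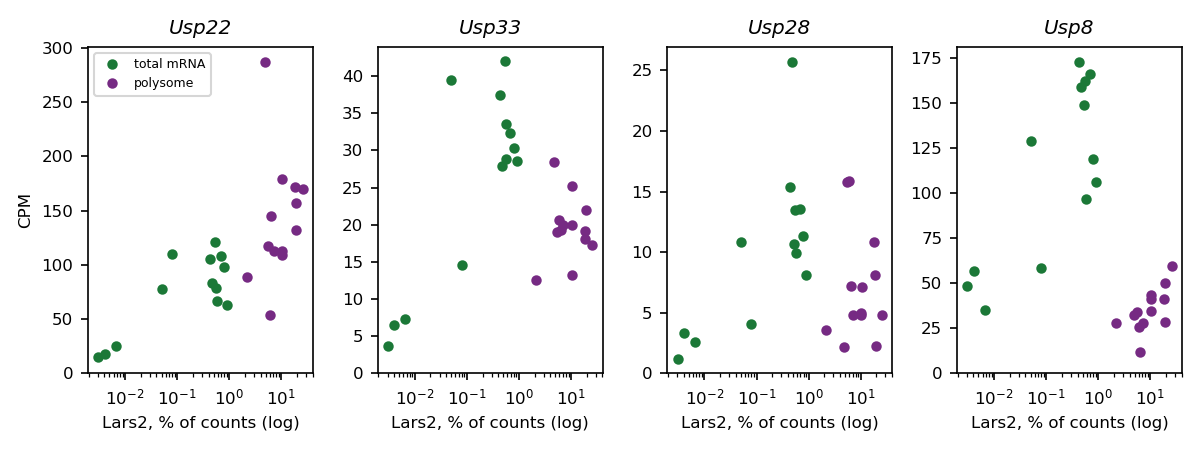
CPM of Usp22, Usp33, Usp28 and Usp8 against the share of Lars2 in the counts of a library (log axis), 1 point per library, 13 total mRNA (green) and 13 polysome (purple). The 3 total mRNA libraries with 0.00304% to 0.00658% Lars2 have the lowest total mRNA level of each gene, such as 3.72 to 7.34 CPM for Usp33.

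The third set of comparisons asked whether USP mRNAs differed between large and small tumours. In edgeR, 0 of 37 USP genes passed in total mRNA (0% of 11671 genes), in polysome mRNA (0% of 10933) and in polysome association (0% of 12109). DESeq2 and limma voom gave 0 USP genes too. At an unadjusted p below 0.05 there were 2, 3 and 6 of the 37 USP genes. Over all genes there were 538 of 11671, 1362 of 10933 and 1385 of 12109. These USP genes all had lower values in large tumours, as had 368 of the 538, 575 of the 1362 and 638 of the 1385. The lowest adjusted p of a USP gene was 0.865, 0.255 and 0.31. In batch 1 alone and in batch 2 alone, 0 USP genes passed as well.

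In total mRNA the median log2 fold of large against small tumours was 0.09, and 22 of 37 USP genes had a positive fold (59.5%, against 46.8% of all genes). Usp42 was at 6.48 to 54.0 CPM in small tumours (median 8.07). In large tumours it was at 7.31, 5.68, 20.5, 4.89 and 14.0 CPM, a log2 difference of −0.90 ± 0.38 (edgeR adjusted p = 0.865). Usp1 (−0.96 ± 0.44) was at 6.48 to 38.6 CPM in small tumours and at 8.31, 5.05, 6.30, 7.13 and 29.3 in large ones. Usp8 (0.54 ± 0.26) and Usp33 (0.89 ± 0.44) had the lowest unadjusted p among the positive folds. For all 4 genes the groups overlapped.

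In polysomes 10 of 37 USP genes had a positive fold (27.0%, against 49.4% of all genes), with a median of −0.23, against −0.01 for all genes. Usp6nl was at 4.49 to 37.1 CPM in small tumours (median 8.86). In large tumours it was at 4.54, 1.23, 2.24, 8.10 and 3.47 CPM, a log2 difference of −1.71 ± 0.60 (edgeR adjusted p = 0.255). Usp31 was at 9.15 to 54.5 CPM in small tumours (median 27.6) and at 28.9, 15.9, 15.9, 10.3 and 8.05 in large ones (−1.03 ± 0.42, edgeR adjusted p = 0.333). Usp5 (−0.74 ± 0.34, edgeR adjusted p = 0.384) also had an unadjusted p below 0.05. Usp7 did not (−0.62 ± 0.34, edgeR adjusted p = 0.458). Usp7 was at 57.9 to 150 CPM in small tumours and at 79.2, 78.2, 47.9, 37.7 and 58.9 in large ones. The lowest unadjusted p among the positive folds were those of Usp21 and Usp15.

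**Figure D5:**
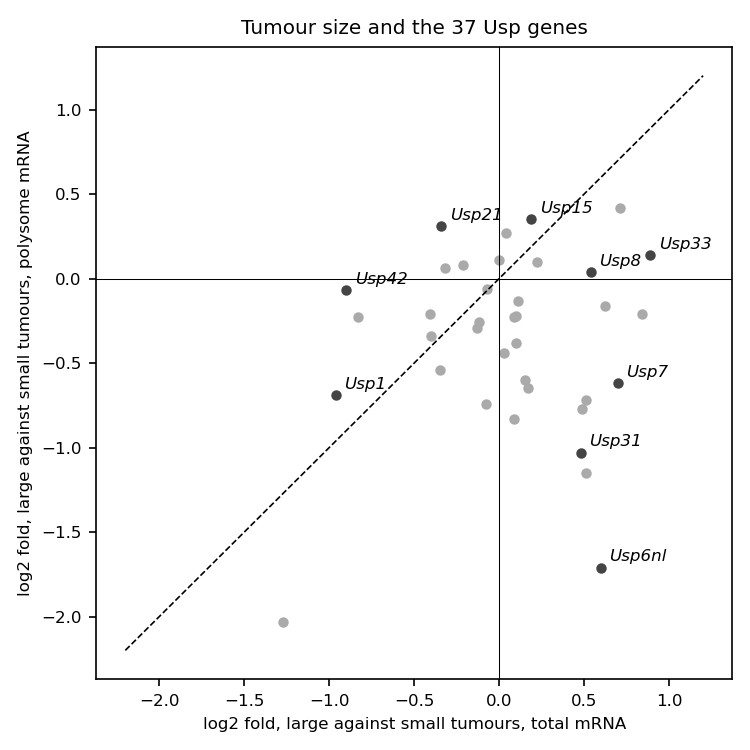
Log2 fold of large against small tumours in polysome mRNA (y axis) against total mRNA (x axis), 1 point per USP gene. Genes named in the text are labelled, the dashed line marks equal folds, and 0 genes passed the test on either axis. More points lie below the zero line in polysomes (10 of 37 positive) than left of it in total mRNA (22 of 37 positive).

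The fitted difference of polysome association, large minus small tumours, was positive in 8 of 37 USP genes (21.6%, against 47.4% of all genes), with a median of −0.50 against −0.06, and 0 genes passed. Without small replicates 6 and 7 and large replicate 3 it was positive in 11, with a median of −0.34 against 0.06. The 3 with the lowest unadjusted p were Usp6nl (−2.78 ± 0.91, edgeR adjusted p = 0.31), Usp7 (−1.39 ± 0.49, edgeR adjusted p = 0.328) and Usp31 (−1.54 ± 0.68, edgeR adjusted p = 0.406). Without small replicates 6 and 7 and large replicate 3, the difference was −1.99 for Usp6nl, −0.59 for Usp7 and −0.81 for Usp31 (edgeR adjusted p = 0.732, 0.899 and 0.917). Without small replicates 7 and 8 it was −3.60, −1.20 and −1.19. Usp42 (0.88 ± 0.51) and Usp21 had the lowest unadjusted p among the positive values. In batch 1 alone the median was −0.25 and in batch 2 alone −0.73. The values of the USP genes come from the same libraries and are not independent of each other.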

How the data were processed

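The mouse build mm10 and the tools HISAT, HISAT2 and limma are named, per the submitters' processing notes, but neither versions nor roles. How reads were counted, with which annotation and strand setting, and what was done with reads shared by paralogs is not stated there. Each library's table, as deposited by the authors, has whole-number read counts per gene, which carried every test, and log2 values (TMM-LOG2 per the file headers), used only to choose the members. Rows with a log2 value had a count of 0 in at most 3 of 26 libraries. The 37 members, the role groups and the lists of other deubiquitinases and partners were chosen with earlier results of these data known. All 37 passed the filters.

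Genes were filtered with filterByExpr, scaled with TMM and tested over the whole table with the robust quasi-likelihood test of edgeR 4.0.16 (R 4.3.3), adjusted after Benjamini and Hochberg and called below 0.05. Levels are TMM-scaled CPM. Differences per tumour are of log2 CPM with a prior count of 1. Polysome against total mRNA was fitted with the tumour as a block and terms of RNA source by size class and by batch, size within an RNA source with batch as covariate. Size classes divide at 1000 mg. Pairing comes from the labels, which take both libraries from the cells sorted from 1 tumour. The correlation of deviations from group means was 0.229 in the median, and 0.0638 at the lowest, for the libraries of the same tumour, and −0.016 in the median for those of different tumours. With means taken within batch, it was 0.286 in the median and 0.015 at the lowest within a tumour. For 9 of 13 tumours, the best match between RNA sources was the other library of the same tumour. The pairing of the rest thus relies on the labels. Each tumour is a separate sample. In the size fits within an RNA source, p-values measure the spread of levels between tumours. In the fits with the tumour as a block, they measure how the difference between polysome and total mRNA varies between tumours. On simulated counts with known changes, the fits of polysome against total mRNA and of size in total mRNA recovered most of the larger changes. The work was set to stop otherwise, and the spread between simulated libraries was set by hand, not taken from these data. The simulation therefore does not show how small a size difference could be found in these tumours. The other fits were not tried on simulated counts, and the simulation held no batch difference. Alternatives used DESeq2 1.42.0 and voom of limma 3.58.1.

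Members named with full values were up to 8 called in each direction between RNA sources and 4 between batches, by fold, the 2 in each direction with the lowest unadjusted p for size, the 5 with the highest mean CPM in total mRNA, and paralogs called in opposite directions. Further members named with values in single sentences were chosen after their values were seen. Coordinates and lengths follow GENCODE vM21 (GRCm38), with 1 APPRIS principal transcript per gene. Amino acid sequences were not used here.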

Additional observations from a re-analysis of the deposited data

Results flagged for a closer look

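A value far from the others of its group, by Dixon's test at the 95% level, was found in 14 of 92 groups of USP levels. The groups, by size class and RNA source, were those of the members named with full values, not of all 37. Each group holds tumours of both batches, and all 14 values were in tumours of batch 2. Chance gives about 1 in 20 for independent groups. These groups share libraries, so their count cannot be judged against that rate. Of the 14 values, 5 were in the total mRNA library of small replicate 8. Usp21 (178 CPM, others 30.6 to 51.6) and Usp25 (101 CPM, others 6.38 to 22.4) were highest there among small tumours. Usp15 (32.2 CPM, others 50.4 to 70.4), Usp4 (52.1 CPM, others 90.6 to 142) and Usp5 (58.1 CPM, others 114 to 137) were lowest there.

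In the total mRNA library of large replicate 3, 4 genes were lowest among large tumours: Usp25 at 6.39 CPM (others 13.2 to 17.6), Usp28 at 3.33 (others 9.94 to 13.6), Usp33 at 6.49 (others 28.8 to 42.0) and Usp6nl at 1.82 (others 5.96 to 8.30). In that of large replicate 5, Usp1 at 29.3 CPM (others 5.05 to 8.31) and Usp49 at 10.6 CPM (others 2.61 to 3.87) were highest. Usp6nl was lowest in the total mRNA library of small replicate 6, at 0.05 CPM (others 2.23 to 7.64). In the polysome library of small replicate 7, Usp6nl was highest at 37.1 CPM (others 4.49 to 11.4) and Usp8 lowest at 11.8 CPM (others 27.8 to 59.7).

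The polysome fold differed between batches, by the interaction test in edgeR, for 7 genes. The log2 difference, batch 2 minus batch 1, was 2.86 for Usp45, 2.39 for Usp28, 2.23 for Usp46, 1.65 for Usp47, 1.58 for Usp15, −1.71 for Usp42 and −1.55 for Usp21. Of the USP genes 13.5% were called higher and 5.41% lower, near the 10.5% and 6.95% of all genes tested. All 7 calls were lost without small replicates 6 and 7 and large replicate 3, and also without small replicates 7 and 8.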

How the results depend on the processing

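Across other scalings, filters, tools, weight in place of size class, each batch alone and each tumour left out, the count of USP genes higher in polysomes was 13 to 19 and that lower 6 to 10. Shares of all genes are given above for the main fit and each batch alone only, so the other counts have no background here. With each tumour left out in turn these were 16 to 19 and 7 to 10. The 3 size comparisons stayed at 0 in every setting run. The number with polysome association called between batches went from 7 to 1 to 9 with a tumour left out in turn, and to 0 in both settings added after the data were seen (small replicates 6 and 7 and large replicate 3 left out, and small replicates 7 and 8 left out). With no replicate block the counts were 18 higher, 8 lower, 0 by size and 5 between batches; Usp20 (log2 fold −0.81, adjusted p = 0.0804) between RNA sources and Usp28 and Usp46 between batches were then not called. Of the named values under all settings, 741 kept direction and call, 46 lost the call, 1 gained it and 2 uncalled values changed sign. DESeq2's size factors moved the median batch difference of all genes from 0.26 to 0.15 and that of the USP genes from 0.42 to 0.31. A mean of at least 10 CPM left 29 USP genes in the polysome fit. Depth limits Usp27x, which had a count of 0 in 3 libraries and an SE of 0.90.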

Other observations

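Rows with USP names outside the 37 were mostly at or near 0. Of the 14 rows without a log2 value, 13 had a median count of 0 over the 26 libraries, and their highest level was 2.52 CPM, that of Usp13. Usp53 was the exception, with a median count of 44.5, 0 in 5 libraries and at most 8.02 CPM. The 4 joined rows had median counts of 877.5 (Usp34 with Ahsa2), 4876.5 (Usp16 with Cct8), 1428 (Usp14 with Thoc1) and 397 (Usp37 with Vil1), and their reads cannot be divided between the genes.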
